A study of Mus musculus with 2 samples.

Results

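Mir103-1, Mir103-2 and Mir107 are the 3 mouse genes that encode miR-103 and miR-107, and each lies inside a gene for a pantothenate kinase. They were taken by gene name from the GENCODE M21 annotation, with no count in the rule, and are 3 of the 2202 microRNA (miRNA) genes with a row in the files. All 3 had 10 or more sense-strand reads in both libraries, the minimum for calling a gene detected, which 406 genes reached. The tissue was left cerebral cortex. The mice were male, 2 months old and of strain B6CASTF1/J, an F1 cross of C57BL/6J with CAST/EiJ. There was 1 group of 2 animals with 1 library each, animal 3 (library 1) and animal 4 (library 2). The labels name no treatment, and no second genotype, age or tissue was compared. The labels number them as biological replicates 1 and 2 but give both the same donor identifier. The p-values therefore compare only these 2 libraries, whose difference may be technical. Those of the exact binomial and Fisher tests below allow for counting error only. Pieces of RNA shorter than 30 nucleotides, as the labels give the size range, were sequenced from total RNA of whole tissue, so fewer cells of a type and less RNA per cell cannot be told apart.

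A miRNA is cut from a hairpin precursor, whose arms (5p and 3p) can each give a mature strand, and it lowers the output of messenger RNAs that pair with its seed, bases 2 to 8 of the mature strand. The mature strands of miR-103 and miR-107 are known as regulators of insulin sensitivity in liver and fat, through the caveolin gene Cav1, and of Dicer, the enzyme that cuts miRNA precursors. In brain, miR-107 has been studied for its pairing with Bace1, the protease that begins the release of amyloid beta. Their hosts Pank1, Pank2 and Pank3 encode the enzymes that begin coenzyme A synthesis from vitamin B5, and loss of human PANK2 causes a neurodegeneration with iron in the brain.

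The 3 hairpins are shown because what separates them decides which reads can be assigned to which gene. They are printed 5′ to 3′ as RNA, with the annotated 5p and 3p mature strands in capitals (RefSeq, GRCm38.p6, the assembly called mm10). The GENCODE M21 sequence of each was the same, letter for letter.
Mir103-1 (ENSMUSG00000065553.1, chr11:35782396-35782481, plus strand): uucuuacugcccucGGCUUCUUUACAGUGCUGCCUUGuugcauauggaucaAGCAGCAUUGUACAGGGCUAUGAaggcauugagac
Mir103-2 (ENSMUSG00000065563.1, chr2:131288052-131288137, plus strand): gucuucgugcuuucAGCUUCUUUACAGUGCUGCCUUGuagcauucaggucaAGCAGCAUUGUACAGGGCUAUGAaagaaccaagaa
Mir107 (ENSMUSG00000065594.1, chr19:34820687-34820773, minus strand): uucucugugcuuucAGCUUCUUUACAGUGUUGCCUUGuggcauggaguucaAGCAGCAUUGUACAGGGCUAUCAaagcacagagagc

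The 3p strands, the ones usually meant by miR-103 and miR-107, share the seed GCAGCAU, shown here in capitals.
miR-103-3p: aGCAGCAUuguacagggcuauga
miR-107-3p: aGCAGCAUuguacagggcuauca

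Counted from 1 at the 5′ end of the strand, the 23 bases of miR-103-3p and miR-107-3p differ at 1 position, G22C (miR-103 base first). Mir103-1 and Mir103-2 give the same 3p strand, with 0 differences. The 5p strands differ more: G1A between Mir103-1 and Mir103-2, C16U between Mir103-2 and Mir107, and both of these between Mir103-1 and Mir107. Their seed, GCUUCUU, is common to all 3. In a global alignment the whole hairpins were 80.2% identical between Mir103-1 and Mir103-2, 80.5% between Mir103-1 and Mir107 and 83.9% between Mir103-2 and Mir107. The longest stretch without a difference measured 27 bases between the 2 Mir103 hairpins, from base 49 to base 75, and held the whole 3p strand (bases 52 to 74). Between either of them and Mir107 it measured 24 bases, from base 49 to base 72, and held all of that strand but its last 2 bases.

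A read that begins at the first base of the 3p strand therefore matched all 3 hairpins exactly up to a length of 21 bases. From 22 bases on it matched Mir107 alone or the 2 Mir103 genes together, and only from 25 bases, beyond the end of the mature strand, was it found in 1 Mir103 hairpin. On the 5p strand, a read from the first base was found in 1 hairpin from 15 bases (Mir103-1, the shortest length tried) or 16 bases (Mir103-2 and Mir107). Among the 2 stretches of 22 bases inside the 3p strand, 2 were found in 1 annotated hairpin for Mir107, against 0 for Mir103-1 and 0 for Mir103-2. For the 5p strand the same numbers were 2 of 2 for Mir107, 1 of 2 for Mir103-1 and 1 of 2 for Mir103-2. Over the full hairpin, 61 of 66 such stretches (92.4%) were held by 1 hairpin for Mir107, 57 of 65 (87.7%) for Mir103-1 and 55 of 65 (84.6%) for Mir103-2. These are exact matches on either strand among the 2202 annotated miRNA hairpins. None of these stretches of 22 bases was found in an annotated transcript of another type. Genome sequence outside annotated transcripts and matches with mismatches were not searched. The sequences are those of the reference, not of the CAST/EiJ alleles that these hybrids also carry.

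**Figure D1:**
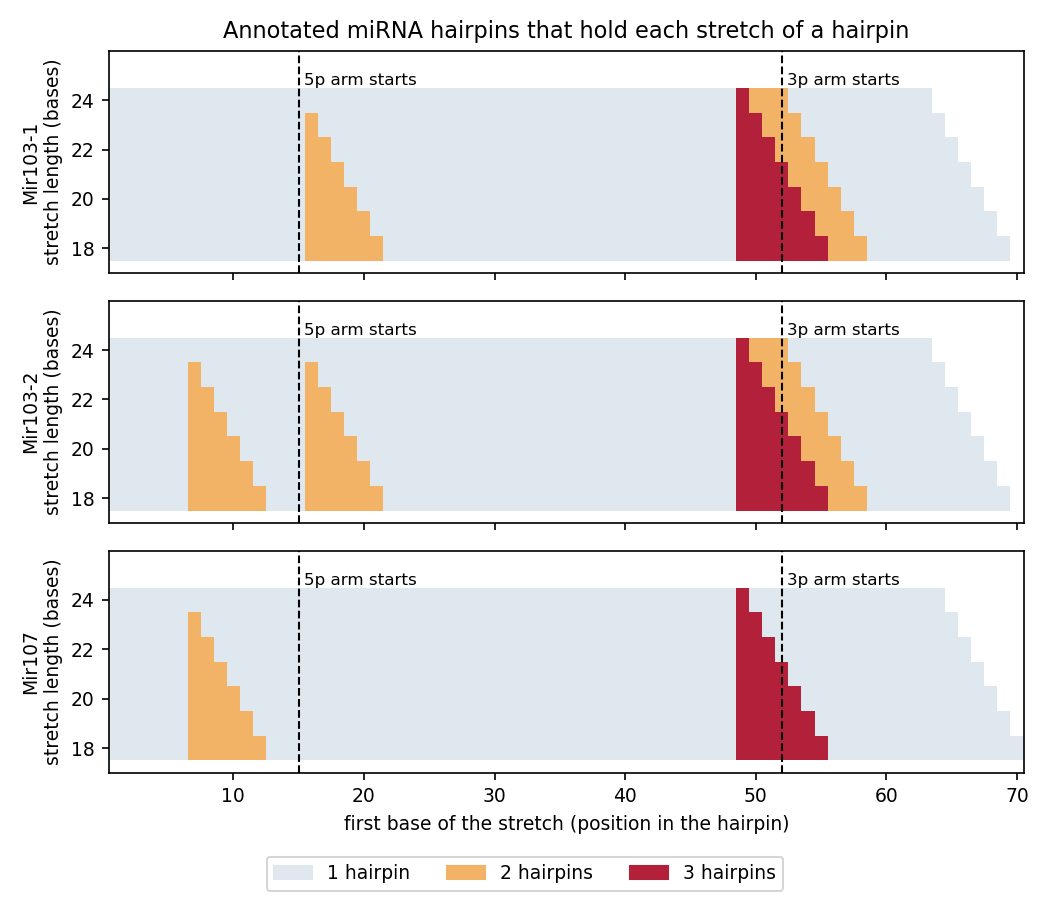
Each panel is 1 hairpin; the x axis is the first base of a stretch, the y axis its length from 18 to 24 bases, and the colour the number of annotated miRNA hairpins that hold it exactly. At the start of the 3p arm (dashed line), stretches of up to 21 bases are in 3 hairpins in every panel, and those of 22 to 24 bases are in 2 hairpins for Mir103-1 and Mir103-2 but in 1 for Mir107.

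The 3 hairpins take the same place in their hosts. On the principal transcript of each host, the hairpin lies on the host's strand in intron 5 of a gene with 7 exons, with 2 exons after it. Mir103-1 lies in intron 5 of Pank3, which is 1740 bases long (chr11:35781708-35783447), 688 bases after the upstream exon. Mir103-2 lies in intron 5 of Pank2, 5801 bases long (chr2:131287598-131293398), 454 bases after the upstream exon. Mir107 lies in intron 5 of Pank1, 7282 bases long (chr19:34813818-34821099), 326 bases after the upstream exon. The distance to the next exon varied more, from 966 bases for Mir103-1 to 5261 for Mir103-2 and 6869 for Mir107. Stretches of 18 bases of each hairpin were also sought in annotated transcripts other than miRNAs, on either strand. There, 1 of 69 was found for Mir103-1, 0 of 69 for Mir103-2 and 4 of 70 for Mir107. No exon of another annotated transcript of these hosts thus covers a whole hairpin. The host messenger RNAs were not measured here.

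**Figure D2:**
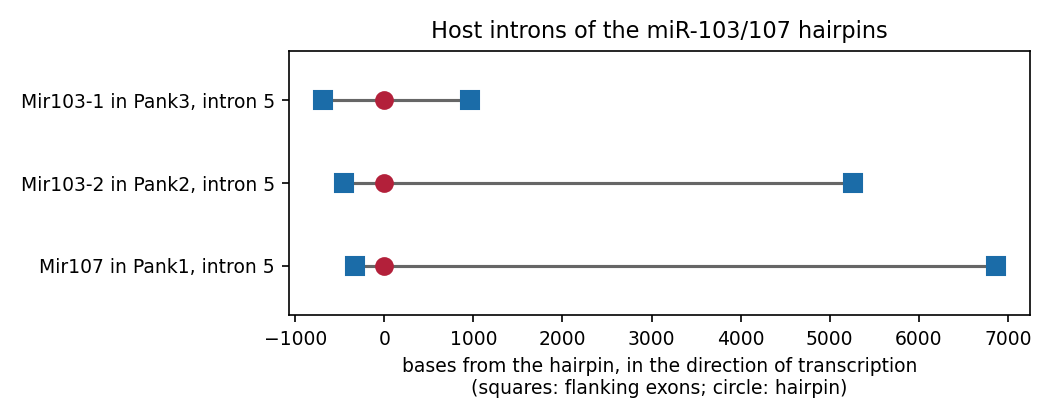
The x axis gives bases from the hairpin (circle at 0) in the direction of transcription, with the flanking exons of the principal transcript as squares. The upstream exon is 326 to 688 bases away in the 3 hosts, and the downstream exon 966 to 6869 bases.

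Sense-strand reads in miRNA genes numbered 3827158 in library 1 and 4553291 in library 2, out of 11372894 and 12980686 reads in all. Counts are raw reads per hairpin gene, with the arms not separated, and CPM is reads per 1000000 sense-strand miRNA reads. From their layout, the tables keep reads with several genomic places in a separate tally that no gene receives, and such reads made up 41.7% of library 1 and 41.1% of library 2. Intervals cover the counting error of reads only. A molecule copied by PCR can be read several times and no molecular identifier marks the copies. The intervals may therefore be too narrow for molecules. Of the 12 neuron markers 9 were detected, with a summed level of 77660 CPM in library 1 and 52536 CPM in library 2. The 3 Mir124a genes, which encode a defining neuronal miRNA, were near 0, at 0.220 to 3.95 CPM in either library. Their mature strand is shared between loci too. Of the 6 heart and skeletal muscle markers 1, Mir206, was detected, at 25.3 CPM in library 1 and 33.6 CPM in library 2. The 4 genes for miR-1a and miR-133a, miRNAs that are also encoded at more than 1 locus, had no sense-strand read. On the strand opposite Mir1a-2 there were 13 reads in library 1 and 8 in library 2. Mir208a had 4 reads in library 1 and 17 in library 2. The liver gene Mir122 stood at 75.5 ± 4.42 CPM (SD, n = 2).

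Among the reads assigned to any of the 3 genes, nearly all went to Mir107. Reads of the family with several places, if tallied apart as the layout says, are not included. Mir107 had 10172 reads in library 1 and 19270 reads in library 2, or 2658 and 4232 CPM, a mean of 3445 ± 1113 CPM (SD, n = 2). It ranked 57 in library 1 and 44 in library 2 among the 2202 genes, and 50 by mean CPM, above 87.7% of the detected genes.

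Mir103-2 had 103 reads in library 1 and 114 reads in library 2, or 26.9 and 25.0 CPM (25.97 ± 1.33 CPM; SD, n = 2). It ranked 258 and 261, in the lower part of the detected genes, whose median was 95.6 CPM. Mir103-1 had 22 reads in library 1 and 35 reads in library 2, or 5.75 and 7.69 CPM (6.72 ± 1.37 CPM; SD, n = 2). Its ranks were 362 and 339, and 13.3% of the detected genes had a lower mean. The order Mir107, Mir103-2, Mir103-1 was the same in both libraries, and no neighbours in it overlapped. The hairpins measure 87, 86 and 86 bases in that order, so their CPM were set side by side without scaling for length.

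**Figure D3:**
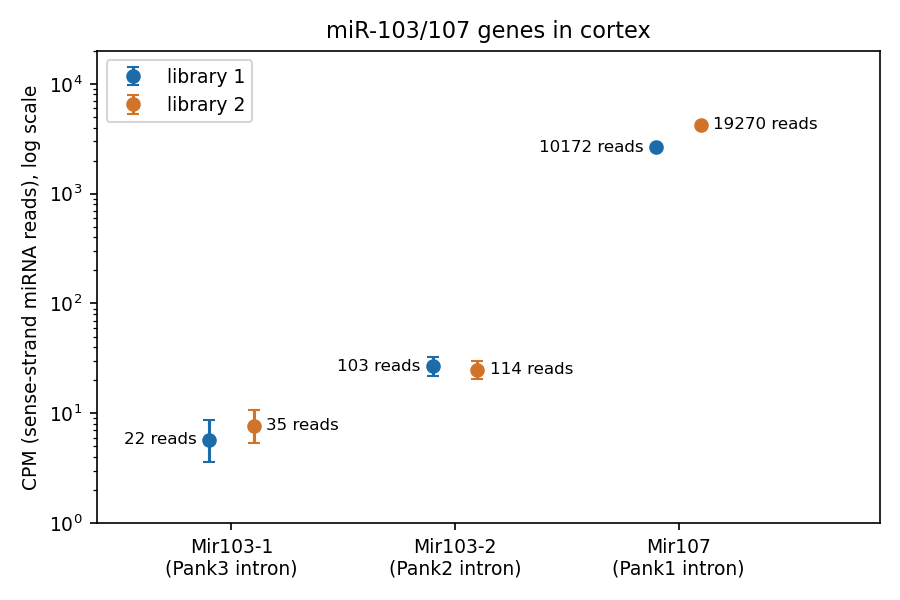
The y axis is CPM on a log scale for the 3 genes, with 1 point per library, exact 95% Poisson intervals as bars and the read counts as labels. Mir107 sits at 2658 and 4232 CPM, Mir103-2 at 26.9 and 25.0 CPM and Mir103-1 at 5.75 and 7.69 CPM.

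For each read of Mir103-1, Mir107 had 462 in library 1 (305 to 738, exact 95% interval) and 551 in library 2 (396 to 791). Against Mir103-2 the ratio was 98.8 in library 1 (81.3 to 121) and 169 in library 2 (141 to 205). Mir103-2 exceeded Mir103-1 by a ratio of 4.68 in library 1 (2.93 to 7.79) and 3.26 in library 2 (2.21 to 4.90). The 2 Mir103 genes give identical 3p strands, and a read lying wholly within that strand has at least 2 exact places. If such reads were tallied apart, as the layout says, they are in neither gene's count. The tables do not separate the arms. The low counts of the 2 Mir103 genes are thus no measure of how much miR-103-3p the tissue holds, and the ratios compare assigned reads. A Mir107 read of up to 21 bases from the start of the 3p strand also matches all 3 hairpins. The count of Mir107 may therefore leave out part of miR-107-3p as well. The tally of reads with several places, of which the share from this family is unknown, held 461 reads for every read counted in the 3 genes in library 1 and 275 in library 2.

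Together the 3 genes held 10297 reads in library 1 and 19419 in library 2. That is 0.269% of the sense-strand miRNA reads in library 1 (0.264 to 0.274%, exact 95%) and 0.426% in library 2 (0.421 to 0.433%), a mean of 0.348% ± 0.111 (SD, n = 2). Mir107 made up 98.8% of the reads assigned to the 3 genes in library 1 (98.6 to 99.0%) and 99.2% in library 2 (99.1 to 99.4%). The share of Mir103-2 was 1.00% in library 1 (0.817 to 1.21%) and 0.587% in library 2 (0.484 to 0.705%). These shares differed by Fisher's exact test (two-sided, adjusted over 3 tests, p = 0.000305 for Mir107 and for Mir103-2). As the shares of the 3 genes add up to a whole, these 2 results are largely the same difference and not independent. The share of Mir103-1 was 0.214% in library 1 and 0.180% in library 2 and did not pass (adjusted p = 0.578, Fisher's exact test). This test allows for counting error only and compares these libraries, not conditions.

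The libraries differed at Mir107 but not detectably at the Mir103 genes. Mir107 was lower in library 1, with a log2 ratio of library 1 over library 2 of -0.67 (exact 95% interval -0.71 to -0.64), or 0.628-fold. It passed the two-sided exact binomial test, whose Benjamini-Hochberg adjusted p was below the smallest number the software holds. The log2 ratio of Mir103-2 was 0.10 (-0.29 to 0.50, adjusted p = 0.717, exact binomial test) and that of Mir103-1 was -0.42 (-1.26 to 0.39, adjusted p = 0.415, exact binomial test). With 57 reads over both libraries, the interval of Mir103-1 includes the ratio of Mir107. With 217 reads, that of Mir103-2 does not.

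The count of 1 in 3 has to be read against the background. By the same test 246 of 508 genes (48.4%) differed between the libraries, 23.2% of the 508 being higher in library 2. Among the 92 genes with a mean of at least 1000 CPM, to which Mir107 belongs, 85 (92.4%) differed. In that set only Mir99b (2493 and 7770 CPM) and Mir23a (6587 and 11615 CPM) had lower ratios than Mir107, and they are named after their values were seen. When the spread between the libraries was allowed for with edgeR's exact test at a common dispersion, 4 of 508 genes (0.787%) differed. Mir107 was not among them (edgeR exact test, p = 0.319, adjusted p = 1), nor were Mir103-2 (adjusted p = 1) and Mir103-1 (adjusted p = 1). The coefficient of variation behind that test was 33.2%, and it was estimated from the same 2 libraries.

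Of the 3 red blood cell markers 2, Mir451a and Mir144, were higher in library 2, as was Mir107. All 3 on the list were detected and none was at 0, and their summed level was 134 CPM in library 1 and 1549 CPM in library 2. Mir451a, which defines red blood cells, stood at 58.3 and 1419 CPM and Mir144 at 24.6 and 96.0 CPM, while Mir486 was higher in library 1 (51.0 and 34.7 CPM). The summed neuron markers, given above, were higher in library 1, and 2 genes carried that difference, Mir132 (48515 CPM in library 1 and 30152 CPM in library 2) and Mir128-1 (13881 and 6392 CPM). Of the 10 neuron markers tested, 4 were called higher in library 1 and 2 higher in library 2, and their median log2 ratio was 0.07. The part of either cell type in the difference at Mir107 was not tested.

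**Figure D4:**
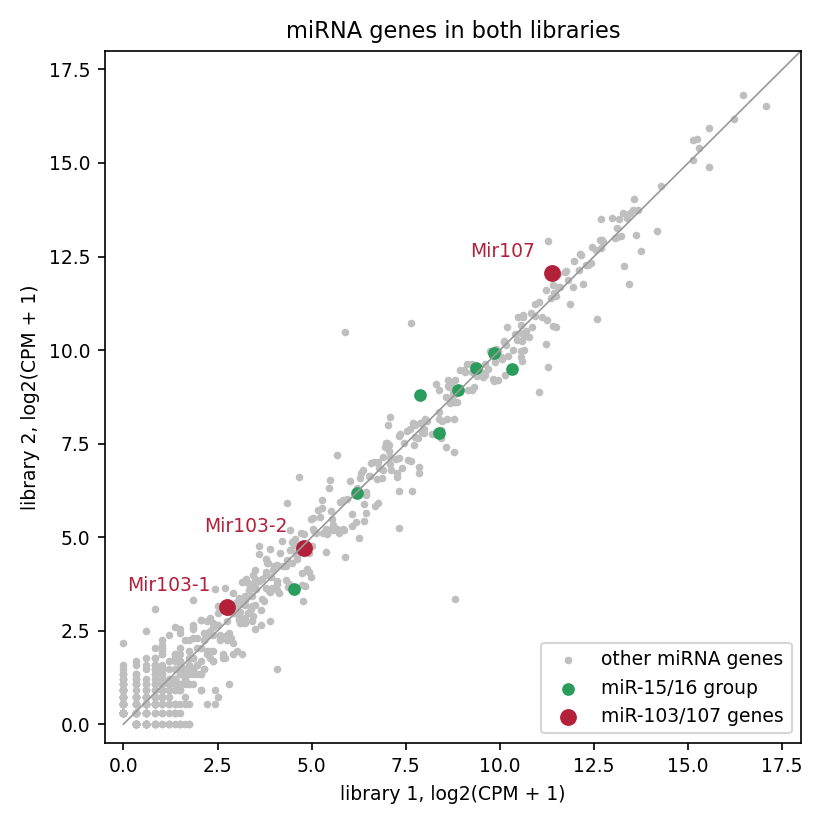
Each point is a miRNA gene with at least 1 sense-strand read. The x axis is log2(CPM + 1) in library 1 and the y axis that in library 2, and the line marks equal values. Mir107 lies above the line at 2658 and 4232 CPM, and Mir103-2 and Mir103-1 lie close to it.

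No read fell on the strand opposite a member. The antisense count was 0 for Mir103-1, Mir103-2 and Mir107 in both libraries, which for Mir107 allows up to 0.0295% of its sense reads in library 1 and 0.0156% in library 2. At their lower depth the limit is 2.91% and 2.63% for Mir103-2 and 13.6% and 8.57% for Mir103-1, in library 1 and library 2. The column that ignores strand held the same counts as the sense column for all 3.

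The genes nearest to each member over the 2 libraries, by distance in log2(CPM + 1), were Mir320 (0.18) and Mir100 (0.31) for Mir107. Mir320 had 3007 CPM in library 1 and 4216 CPM in library 2, and Mir100 had 2727 and 3423 CPM. For Mir103-2 they were Mir542 (0.14) and Mir7j (0.18), and for Mir103-1 Mir7240 (0.07) and Mir3078 (0.11). With 2 libraries this describes level more than pattern.

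The seed of the family is the seed of miR-15 and miR-16 moved by 1 base. A search of the RefSeq mature strands for AGCAGC within the first 8 bases found it at base 1 in the 3 members and at base 2 in 12 other genes. Of these, 11 carry the seed AGCAGCA and Mir503 carries AGCAGCG. The miR-15/16 family is known for restraining the cell cycle, and its mature strands are set here beside miR-107-3p, with the seed in capitals, to show the offset.
miR-107-3p: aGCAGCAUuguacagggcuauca
miR-16-5p: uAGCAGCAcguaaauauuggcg
miR-195a-5p: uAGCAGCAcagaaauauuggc
miR-497a-5p: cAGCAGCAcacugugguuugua

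With Mir497b, listed by name, this group had 13 genes. Mir497b lies on the opposite strand of Mir497. Of the 13 genes, 8 were detected and 5 had no sense-strand read. Mir107 was above all of them in both libraries. The highest were Mir195a at 998 ± 387 CPM, Mir497 at 942 ± 39.2 CPM and Mir322 at 694 ± 52.6 CPM (SD, n = 2 each), and the median over the 13 was 72.6 CPM, against 0 CPM over all 2202 genes. Of its 8 tested genes, 3 passed as higher in library 1 and 3 passed as higher in library 2, beside 48.4% called over all genes (exact binomial test). Mir195a went against Mir107, with 1271 CPM in library 1 and 724 CPM in library 2. Mir16-1 went with it, with 234 CPM in library 1 and 446 CPM in library 2. Mir16-1 and Mir16-2 share their 5p strand as the Mir103 genes share their 3p strand, and stood at 340 ± 150 and 72.6 ± 0.796 CPM (SD, n = 2 each).

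The pattern of 1 abundant gene and 2 low copies was set beside other miRNAs in introns of related host genes. In the miR-26 family, in the Ctdsp phosphatase genes, Mir26b has its own mature strand and had 4116 ± 901 CPM (SD, n = 2). Mir26a-1 and Mir26a-2, which share their 5p strand, had 8.15 ± 2.52 and 230 ± 312 CPM, and Mir26a-2 differed widely between the libraries (1722 reads in library 1 and 42 in library 2). Mir128-1 and Mir128-2 share their 3p strand and had 10137 ± 5296 and 2209 ± 919 CPM (SD, n = 2 each). Mir218-2 and Mir218-1 lay between Mir26a-1 and Mir128-2, at 125 ± 38.7 and 38.1 ± 3.82 CPM. The other genes of the list, Mir499, Mir208a and Mir208b, share no annotated strand with another hairpin and were low. They had means of 14.3, 2.39 and 1.14 CPM, and only Mir499 was detected. Which strand gave these reads is not known, and the part of strand sharing in the levels was not tested. Over this list of 10 genes the median was 81.4 CPM, and the exact binomial test called 5 as higher in library 1 and 1 as higher in library 2, beside the 48.4% of all tested genes.

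Genes were grouped by their RefSeq mature strands, and those without one were left out. Of the rest, 61 genes, Mir103-1 and Mir103-2 among them, have 1 mature strand that is found in another hairpin and 1 that is not. Their median was 19.5 CPM, with 40 of 61 detected. Mir103-1 was above 23 and below 37 of the 61, and Mir103-2 above 32 and below 28. Mir107 belongs to the 907 genes whose every annotated strand is in 1 hairpin, with a median of 0.701 CPM and 319 detected, and it was above 866 and below 40 of them. A further 54 genes share every strand, and 6 of these were detected.

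**Figure D5:**
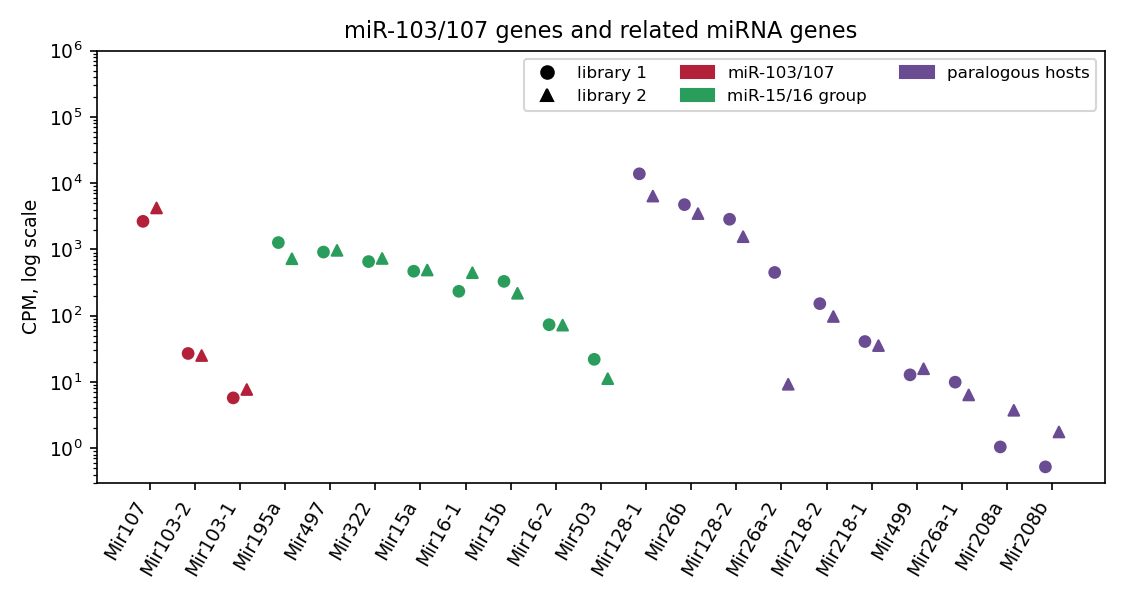
The y axis is CPM on a log scale for the 3 members, the miR-15/16 group and the miRNAs of related host genes. Genes without a sense-strand read are left out, and circles mark library 1 and triangles library 2. Mir107 lies above all genes of the miR-15/16 group, and Mir103-2 and Mir103-1 lie near Mir503 (16.6 CPM) and Mir26a-1 (8.15 CPM).

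Mir107 lay above the median of both lists of miRNAs studied in the same settings. Of 14 genes known from insulin response and lipid metabolism, 13 were detected, with a median of 1537 CPM. The highest were Mir29a at 10625 ± 2718 CPM, Mir221 at 7165 ± 1048 CPM and Mir143 at 6265 ± 373 CPM (SD, n = 2 each). The exact binomial test called 5 of the 13 tested as higher in library 1 and 7 as higher in library 2, beside 48.4% over all tested genes and 92.4% over those of at least 1000 CPM. Mir33, in an intron of the sterol regulator Srebf2, stood at 17.5 CPM in library 1 and 28.6 CPM in library 2.

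Of 18 other genes whose miRNAs have been reported to pair with Bace1, 15 were detected, with a median of 151 CPM. Mir328 (13315 ± 460 CPM), Mir29a and Mir485 (3126 ± 219 CPM; SD, n = 2 each) led this list by mean CPM. Mir107 lay below Mir328 and Mir29a in both libraries, and in library 1 also below Mir298 (3754 CPM) and Mir485 (2971 CPM), which it exceeded in library 2 (2403 and 3281 CPM). The exact binomial test called 7 of its 16 tested genes as higher in library 1 and 3 as higher in library 2, beside the 48.4% called over all tested genes. Mir29a, the leading gene of one list and the runner-up of the other, had 12547 CPM in library 1 and 8703 CPM in library 2, the opposite direction from Mir107.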

How the data were processed

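Small RNA from 2 cortex libraries was counted per miRNA gene. The authors deposited raw read counts, with build mm10 and annotation M21 per the labels and the deposited file notes. The sources used here name no aligner or trimming step. Strand use and the separate tally of reads with several places were read from the layout. Tally rows stayed out of library sizes. The sense column was fixed by its position in the layout.

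CPM, exact binomial tests over the 508 genes with 10 or more reads in total (Benjamini-Hochberg, 0.05), exact 95% intervals and Fisher's exact tests used Python 3.11.15 and scipy 1.17.1. The spread used edgeR 4.0.16 (TMM, common dispersion) and size factors DESeq2 1.42.0 in R 4.3.3. The genome sequence was not used here, so stretches were matched to GENCODE M21 hairpins and other transcripts in place of the genome. Members, lists and the naming rule (the members, their 2 nearest genes, up to 3 leading genes per list) were chosen with earlier results of these data known. Genes named beyond that rule were chosen after their values were seen. Alternatives covered strand column, scaling, denominator, test, count minimum and each library left out.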

Additional observations from a re-analysis of the deposited data

Results flagged for a closer look

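Reads that mapped to several places lie outside the counts of any gene and made up 41.7% of library 1 and 41.1% of library 2. The deposited tables do not say which of these reads carried the strands of miR-103 or miR-107. How many came from the 3 genes was not tested.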

How the results depend on the processing

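Of 55 alternative values, 50 kept their direction and their side of the threshold, or moved by less than the spread between the libraries. Counts of genes among them had to stay within a fixed fold window instead. Part of the outcome was fixed in advance: with 2 libraries, leaving 1 out can never move a mean by as much as the spread. The column that ignores strand holds the same counts for the 3 members, so their shares could not move either. The 50 of 55 thus overstates how far the results were tested. With edgeR's exact test, common dispersion, the log2 ratio of Mir107 was -0.69 and no longer passed (adjusted p = 1, against 1 for the other members), and 4 genes in place of 246 differed between the libraries. With all reads of a library as denominator, the share of the 3 genes was 0.120%. With the column that ignores strand, whose total is smaller, the mean of Mir103-2 was 28.02 CPM. With at least 1 read in both libraries 615 genes were detected. With at least 50 reads, 2 of the 3 members were detected, and Mir103-1 was not. Across the strand, scaling, denominator and count settings the log2 ratio of Mir107 ran from -0.73 to -0.67. Leaving out each library in turn gave 2658 to 4232 CPM for Mir107, 25.0 to 26.9 CPM for Mir103-2 and 5.75 to 7.69 CPM for Mir103-1. No paired analysis was possible because there is 1 group. With 2 libraries, depth limits mainly Mir103-1, at 57 reads in all.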
